A study of Mus musculus with 2 samples.

Results

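The keratin genes of the fetal mouse esophagus were compared between an array labelled as lacking Myf5 and Myod1 (genotype given as BALB/c Myf5:Myod null) and a wild-type array (BALB/c), both at E18.5, shortly before birth. Members were all probe sets whose platform annotation gives 1 gene symbol, of the form Krt followed by a digit, which selected 61 of the 45101 probe sets of the array and 48 of 18193 named genes. Each genotype had 1 array of whole esophagus RNA, with no replicate, so no difference could be tested and each value compares 2 RNA samples. The sources used here do not give the number of embryos behind each sample or the make of the null alleles.

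Keratins are the intermediate filament proteins of epithelial cells. Each filament is built from type I and type II chains in equal amount, and most epithelia make a typical set of partners. Krt8 and Krt18 are the pair of simple, single-layered epithelia, Krt5 and Krt14 that of the basal layer of stratified epithelia, and Krt4 and Krt13 that of the layers above it in esophagus and mouth. The rodent esophagus starts as a simple columnar tube and becomes a stratified squamous epithelium before birth, and in the adult mouse its surface is keratinized.

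The targeted genes were read first, as a check of the labels. Myf5 had a signal of 496 on the null-labelled array and 4072 on the wild-type array, 8.22-fold lower. Myod1 read 1698 on the null-labelled array and 2001 on the wild-type array at its brighter probe set, 1.18-fold lower, so its signal did not check the label. The array is therefore called null-labelled throughout. Across the whole array, 55.4% of probe sets on the null-labelled array and 44.6% on the wild-type array reached a signal of 489, the median of all probe sets of both arrays, used here as a low-signal limit. Lower signals were set to this limit before any ratio was formed, and a gene below it on both arrays was treated as not measured. The 3' to 5' signal ratio of the array controls, a sign of RNA integrity, was 14.2 on the null-labelled and 12.6 on the wild-type array for Actb, and 6.96 on the null-labelled and 10.5 on the wild-type array for Gapdh. On both arrays the 3' signal was thus many times the 5' signal, so the values give no sign of intact RNA. The part of this bias, and of its difference between the arrays, in the keratin ratios was not tested.

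Of the 48 keratin genes, 19 lay above the limit on both arrays, 8 on the null-labelled array alone and 0 on the wild-type array alone, and 21 (43.8%) were not measured. Of all 18193 genes, 10346 lay above the limit on both arrays, 2256 on the null-labelled array alone and 713 on the wild-type array alone, and 26.8% were not measured. Of the 27 measured genes, 7 were at least 2-fold lower on the null-labelled array and 0 were at least 2-fold higher. The background among all 13315 measured genes was 5.36% for 2-fold lower and 6.01% for 2-fold higher. All 7 lay above the limit on both arrays: Krt7, Krt23, Krt19, Krt78, Krt14, Krt8 and Krt6b. The median log2 ratio of null-labelled over wild-type was -0.11 over the 27 genes and -0.29 over the 19 above the limit on both arrays, against 0.086 and 0.014 for all genes counted in those same ways. In whole tissue, fewer cells of a type and less RNA per cell cannot be told apart. The only available measure of error is how far the log2 ratios of a gene's own probe sets lie apart, with a pooled SD of 0.56 (n = 5455 genes). It does not cover variation between embryos. For the 6 keratin genes with several measured probe sets this SD was 0.48. The number of arrays limits the precision.

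**Figure D1:**
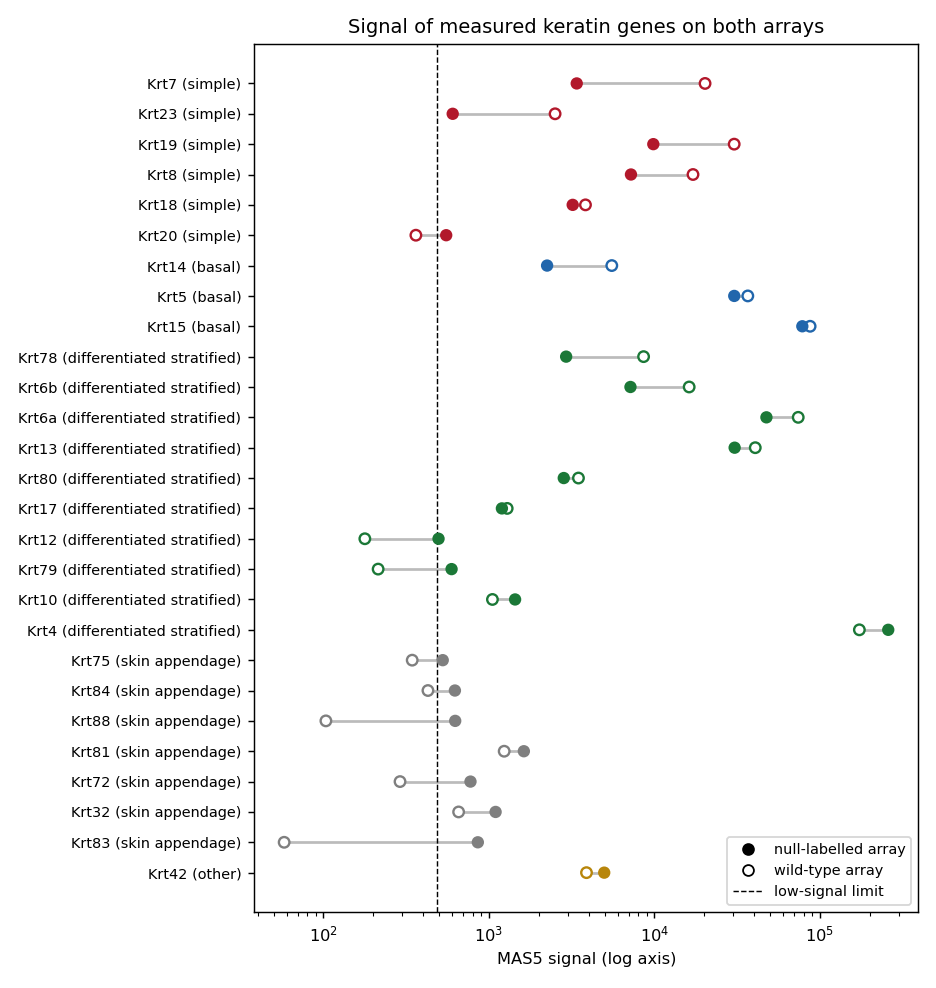
MAS5 signal (log axis) of the 27 measured keratin genes at their brightest probe set. Filled points are the null-labelled array, open points the wild-type array, colours the keratin groups, and the dashed line is the low-signal limit of 489. Signals of different genes come from different probes and are not to be compared. The filled point lies left of the open one for 14 genes, with the widest gaps above the limit at Krt7 and Krt23.

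The simple keratins were the group with most of the low ratios. Of its 6 genes, all measured, 4 read lower by 2-fold or more on the null-labelled array and 0 higher, with a median log2 ratio of -1.43. Krt7, a type II keratin of simple and ductal epithelia, read 3396 on the null-labelled and 20251 on the wild-type array, 5.96-fold lower. Only 0.593% of all measured genes had a lower ratio than Krt7. Krt23, a type I keratin, read 604 on the null-labelled and 2513 on the wild-type array, 4.16-fold lower, and its null-labelled signal lay close to the limit. Krt19, the type I keratin with a very short tail, read 9856 on the null-labelled and 30369 on the wild-type array, 3.08-fold lower. These 3 genes had 1 probe set each, so no second reading was at hand.

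Krt8 was the simple keratin with the most readings. Its 3 probe sets read 7223, 6222 and 4833 on the null-labelled array, against 17122, 15117 and 10859 in the same order on the wild-type array. The ratios were close together, at -1.25, -1.28 and -1.17 on the log2 scale, a fold of 2.37 at the brightest. Krt18, the type I partner of Krt8, read 3210 on the null-labelled and 3835 on the wild-type array, 1.19-fold lower, less than that SD. Krt20, a type I keratin of intestinal and bladder surface cells, read 552 on the null-labelled array and was below the limit on the wild-type array at 362, a bound of at least 1.13-fold higher.

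Promoter sequences are shown for the simple keratins on which this pattern turns and for which RefSeq's table holds one: Krt7, Krt8 and Krt23, which were lower, and Krt18, which was within the spread. Each runs 5′ to 3′ along the gene, from 250 bases before the annotated start to 50 after it, build GRCm38.p6: Krt7 at chr15:101412153-101412452 (plus strand), Krt8 at chr15:102004293-102004592 (minus), Krt23 at chr11:99493071-99493370 (minus) and Krt18 at chr15:102027966-102028265 (plus). Capitals mark letters of 4 motifs, searched on both strands: the TATA box letters TATAAA, the GC box GGGCGG, the AP-1 motif TGANTCA and the AP-2 motif GCCNNNGGC.
Krt7: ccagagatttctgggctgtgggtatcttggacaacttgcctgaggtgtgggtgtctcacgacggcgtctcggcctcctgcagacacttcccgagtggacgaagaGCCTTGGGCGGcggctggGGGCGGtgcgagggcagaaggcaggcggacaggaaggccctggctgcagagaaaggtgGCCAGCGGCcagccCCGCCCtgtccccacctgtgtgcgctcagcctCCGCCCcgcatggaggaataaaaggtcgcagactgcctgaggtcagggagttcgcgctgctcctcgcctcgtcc
Krt8: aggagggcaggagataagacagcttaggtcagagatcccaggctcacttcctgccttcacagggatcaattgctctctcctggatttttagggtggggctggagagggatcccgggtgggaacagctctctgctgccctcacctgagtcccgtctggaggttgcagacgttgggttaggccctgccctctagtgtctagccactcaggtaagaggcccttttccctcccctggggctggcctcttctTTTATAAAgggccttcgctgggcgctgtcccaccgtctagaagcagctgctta
Krt23: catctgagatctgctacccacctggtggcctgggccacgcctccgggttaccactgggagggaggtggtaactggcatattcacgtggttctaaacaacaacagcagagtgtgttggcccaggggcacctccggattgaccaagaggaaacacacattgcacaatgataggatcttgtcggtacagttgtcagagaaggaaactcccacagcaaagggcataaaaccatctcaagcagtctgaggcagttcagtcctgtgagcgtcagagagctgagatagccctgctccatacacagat
Krt18: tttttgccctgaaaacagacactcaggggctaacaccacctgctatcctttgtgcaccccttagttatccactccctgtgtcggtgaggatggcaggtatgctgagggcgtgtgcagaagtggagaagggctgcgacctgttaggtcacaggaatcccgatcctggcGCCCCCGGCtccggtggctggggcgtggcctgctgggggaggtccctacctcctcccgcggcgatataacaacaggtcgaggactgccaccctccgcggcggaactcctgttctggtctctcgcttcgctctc
The Krt7 window held 4 GC boxes and 2 AP-2 matches, and the upstream AP-2 match overlaps a GC box. The Krt8 window held TATAAA only at the annotated start itself, on both strands with shared letters. Krt18 held 1 AP-2 match, and the Krt23 window held none of the 4 motifs. Of all 32851 windows in the table, 13.6% hold TATAAA, 35.7% GGGCGG, 7.81% TGANTCA and 16.6% GCCNNNGGC. A match describes letters only and is no evidence of binding.

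Basal keratins split. All 3 were measured and read lower, 1 of them at least 2-fold, with a median log2 ratio of -0.27. Krt5, the type II keratin of basal cells, read 30399 on the null-labelled and 36718 on the wild-type array, 1.21-fold lower. Krt15, a type I basal keratin, read 78385 on the null-labelled and 87361 on the wild-type array, 1.11-fold lower. Both are within the spread between probe sets. Krt14, the type I partner of Krt5, read 2248 on the null-labelled and 5532 on the wild-type array at its brightest probe set, 2.46-fold lower. A second Krt14 probe set read 384, below the limit, on the null-labelled and 1817 on the wild-type array, at least 3.71-fold lower. The remaining probe set stayed under the limit, with 441 on the null-labelled and 424 on the wild-type array, so 2 of the 3 read lower.

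Among the differentiated keratins of stratified epithelia, the esophageal pair Krt4 and Krt13 showed no common direction. Krt4 had a log2 ratio of 0.58 at its brightest probe set, with 259124 on the null-labelled and 173385 on the wild-type array. Its other probe set went the opposite way, with 71386 on the null-labelled and 84833 on the wild-type array (log2 ratio -0.25). Few genes are as bright, so the genes set beside Krt4 for their signal were mostly dimmer than it. The 253 beside its brightest probe set had a median log2 ratio of 0.20, and the 336 beside its other probe set one of 0.14. The Krt13 probe sets read 30568, 16226 and 8872 on the null-labelled array, against 40725, 13879 and 9584 in the same order on the wild-type array. Their log2 ratios of -0.41, 0.23 and -0.11 lie on both sides of 0. With quantile normalization the brightest Krt4 probe set turned to -0.43, and that of Krt13 was -0.33.

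Krt78 was the lowest of this group at the brightest probe sets. This type II keratin of stratified epithelia read 2930 on the null-labelled and 8609 on the wild-type array, 2.94-fold lower. Krt80, a type II keratin known for its place near desmosomes, read 2835 on the null-labelled and 3478 on the wild-type array, 1.23-fold lower, within the spread.

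The activated keratins, which hyperproliferating and wounded epithelium raises and which the esophageal lining also makes, gave mixed readings. Krt6b read 7172 on the null-labelled and 16233 on the wild-type array, 2.26-fold lower. Krt6a had 3 probe sets that all read lower but by different amounts. Its brightest read 47570 on the null-labelled and 74034 on the wild-type array, a log2 ratio of -0.64. The others read 5320 and 3631 on the null-labelled array, against 19690 and 16597 in the same order on the wild-type array, which is -1.89 and -2.19 on the log2 scale. Taken at the middle of its 3 ratios, Krt6a would also count as 2-fold lower, which makes 8 genes. Krt6a and Krt6b are near-identical copies, and array probes may not separate them. Krt17 read 1199 on the null-labelled and 1290 on the wild-type array, 1.08-fold lower, while its second probe set was below the limit on both. Krt16 also lay below it on both, at 159 on the null-labelled and 441 on the wild-type array.

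**Figure D2:**
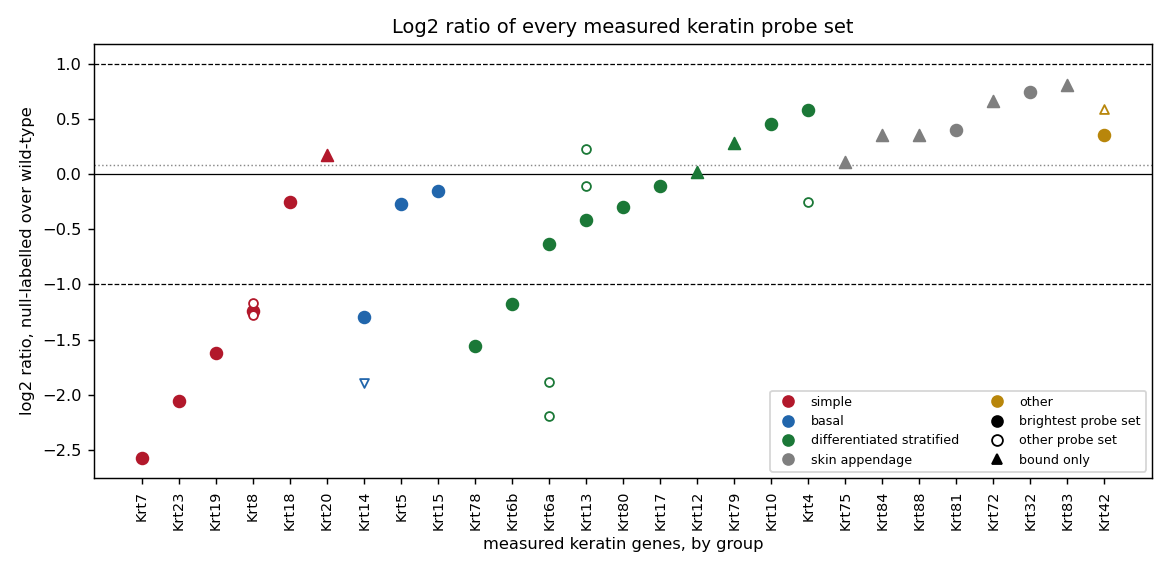
Log2 ratio of null-labelled over wild-type signal for each measured keratin probe set, by gene and group. Large filled points are the brightest probe set of a gene, small open ones its others, triangles are bounds, dashed lines mark 2-fold and the dotted line the median of all measured genes (0.086). The 3 Krt8 points lie together, whereas those of Krt6a span 1.55 and those of Krt4 0.83.

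Epidermal and barrier keratins were mostly dim. Krt1, Krt2 and Krt77, type II keratins of epidermis and its glands, Krt76, the type II keratin of hard palate, and Krt24 lay below the limit on both arrays. Krt1 read 110 on the null-labelled and 35.9 on the wild-type array. Krt10, the type I partner of Krt1, was the exception at 1440 on the null-labelled and 1051 on the wild-type array, 1.37-fold higher, within the spread. Krt79 and Krt12, keratins of hair canal and cornea, passed the limit only on the null-labelled array. Krt79 read 595 on the null-labelled and 214 on the wild-type array, at least 1.22-fold higher. Krt12 read 496 on the null-labelled and 178 on the wild-type array, at least 1.01-fold higher (-0.065 on the log2 scale with median centring), and its second probe set was below the limit on both. The 16 differentiated keratins together, that is these, the activated ones and Krt4, Krt13, Krt78 and Krt80, had 10 genes measured. Of those, Krt78 and Krt6b were at least 2-fold lower and 0 higher, with a median log2 ratio of -0.20.

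Keratins of hair, nail and other skin appendages made up the largest set, 21 genes, and 14 of them were not measured. All 7 that were measured had ratios above 0, none of 2-fold, with Krt84 at -0.0023 under quantile normalization. Of these, 5 passed the limit only on the null-labelled array, so their ratio had to lie above 0: Krt83, Krt72, Krt88, Krt84 and Krt75. Krt83 read 857 on the null-labelled and 57.9 on the wild-type array, a bound of at least 1.75-fold higher. Krt72 read 774 on the null-labelled and 290 on the wild-type array, and Krt88 626 on the null-labelled and 104 on the wild-type array. Krt84 and Krt75 had bounds of at least 1.27-fold and 1.08-fold higher. Above the limit on both arrays were 2 genes of this set. Krt32, a type I hair keratin, read 1098 on the null-labelled and 656 on the wild-type array, 1.67-fold higher. Krt81, a type II hair keratin, read 1627 on the null-labelled and 1237 on the wild-type array, 1.31-fold higher. For genes of like signal the median log2 ratio was 0.33 beside Krt32 and 0.094 beside Krt81. Krt42 and Krt222 were in none of the groups as listed here. Krt42 read 4978 on the null-labelled and 3890 on the wild-type array, 1.28-fold higher. Its second probe set read 735 on the null-labelled array and 355, below the limit, on the wild-type array, a log2 bound of 0.59. Krt222 was not measured.

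The 21 genes not measured read between 14.7 and 471 on the null-labelled array and between 35.9 and 441 on the wild-type array. Of the 25 keratin probe sets below the limit on both arrays, 44% read higher on the null-labelled array, against 63.2% of all such probe sets. Dim readings set the balance of the counts. With a limit set at the 25th percentile of the probe sets, 10 of 40 keratin genes read 2-fold lower or more and 8 higher, and with no limit 12 of 48 lower and 11 higher. All of the higher ones, such as Krt83, Krt88 and Krt222, read below 489 on the wild-type array. For all genes measured in the same ways, 7.45% were lower and 16.6% higher with that limit, and 9.37% lower and 19.5% higher with none. At 4-fold, 2 of the 27 keratin genes were lower, Krt7 and Krt23, against 1.07% of all measured genes.

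**Figure D3:**
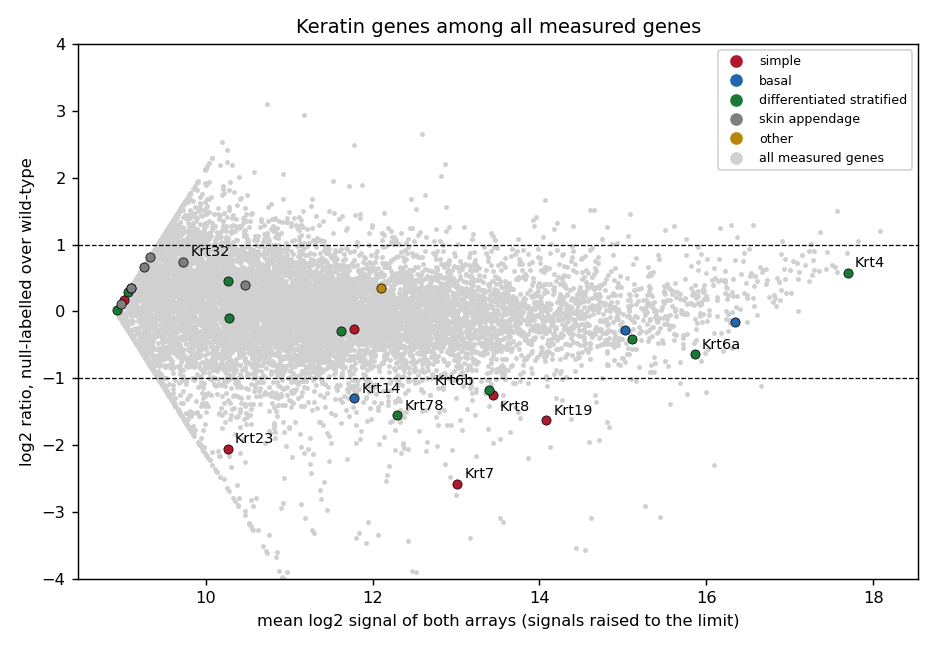
Log2 ratio against mean log2 signal for all 13315 measured genes (grey) and the 27 measured keratin genes (coloured by group), with dashed lines at 2-fold. The slanted edges at the left are bounds of genes below the limit on 1 array, and 25 genes lie outside the plotted range. The 7 keratin genes at least 2-fold lower lie below the lower dashed line at medium signal, and Krt4 lies at the bright end.

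Ratios of the 7 low keratins were set against those of genes of like signal, since ratios drifted with brightness. For the brightest probe sets of the 7, the median log2 ratio of the 500 measured genes nearest in mean signal lay between -0.13 and 0.11. Relative to it, Krt7 was at -2.46, Krt23 at -2.16, Krt19 at -1.57, Krt78 at -1.43, Krt14 at -1.23, Krt8 at -1.13 and Krt6b at -1.06. These genes were picked for ratios of 2-fold or more, so the values are a description only.

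Keratins form filaments in pairs, so the ratios of type II and type I partners were compared. Of 8 pairs listed, 5 had both partners measured. Krt8 lay below Krt18 by a log2 difference of -0.99, and by -1.02 to -0.91 over its 3 probe sets. Krt7 lay below Krt19 (-0.95) and Krt6b below Krt17 (-1.07), with 1 probe set pair each. Krt5 lay above Krt14, by 1.03 to 1.62 over 2 combinations. Krt4 lay above Krt13 by 0.99 at the brightest probe sets, but the 6 combinations ran from -0.47 to 0.99, and with quantile normalization Krt4 (-0.43) lay below Krt13 (-0.33). From the spread between probe sets, a difference of 2 such ratios has an SD of 0.79, so at the brightest probe sets each of the 5 is little more than 1 SD. The pairs Krt1 with Krt10, Krt6a with Krt16 and Krt76 with Krt10 had a member below the limit on both arrays.

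The genes lie in 2 clusters, type I on chromosome 11 and type II with Krt18 on chromosome 15, in the order of RefSeq's GRCm38.p6 annotation. On the array 24 genes of each were read, of which 11 on chromosome 11 and 16 on chromosome 15 were measured. Of these, 3 on chromosome 11 and 4 on chromosome 15 were 2-fold lower or more. The low genes were not all next to each other. Krt19 (log2 ratio -1.62) lies between Krt15 (-0.16) and Krt9, which had no probe set analysed, and the low Krt14 (-1.30) follows Krt9. Krt7 (-2.58) lies between Krt80 (-0.29) and Krt87, also without a probe set, and Krt88 (a bound of 0.36) follows Krt87. Krt78 and Krt8 are direct neighbours (-1.55 and -1.25), and Krt18 (-0.26) follows them. Krt6b, Krt6a and Krt5 stand in a row with log2 ratios of -1.18, -0.64 and -0.27.

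**Figure D4:**
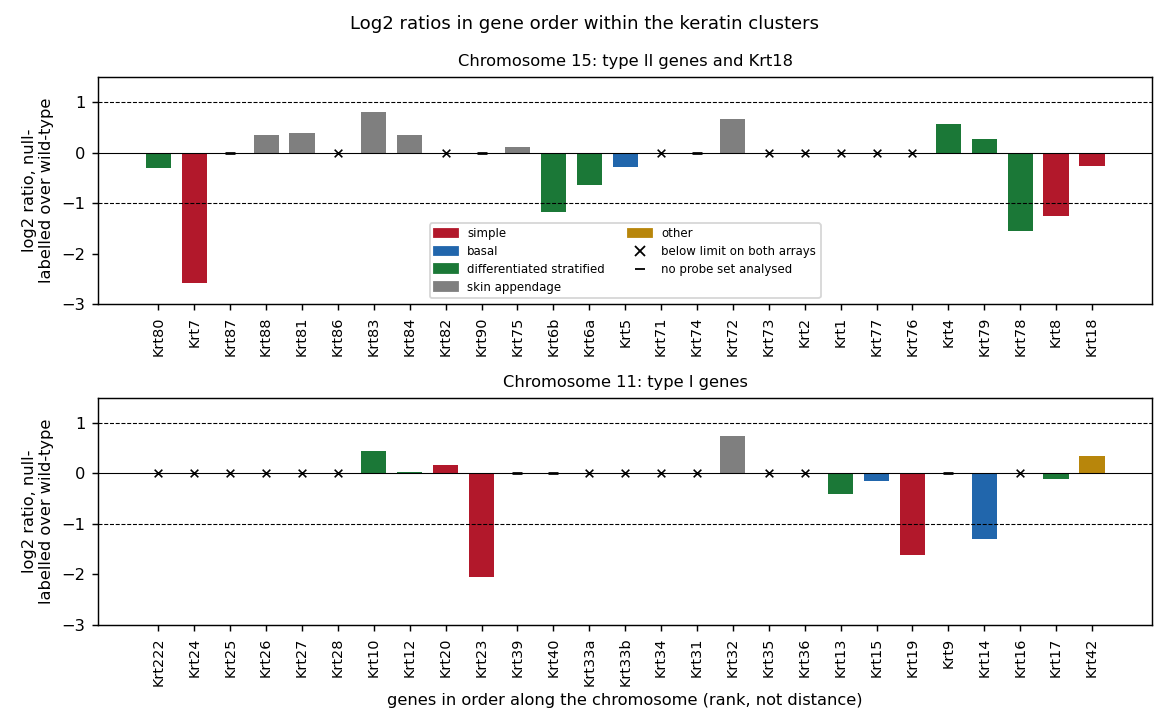
Log2 ratio of null-labelled over wild-type signal for keratin genes in their order along chromosomes 15 and 11, by rank and not by distance. Bars are measured genes coloured by group, crosses genes below the limit on both arrays, short dashes genes with no probe set analysed here, and dashed lines mark 2-fold. The bars below the lower dashed line are spread over both clusters.

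Proteins that anchor keratin filaments at desmosomes and hemidesmosomes were read from a list of 18. All 17 that could be read were measured, 1 at least 2-fold lower and 0 higher, with a median log2 ratio of -0.24. That count is near the share among all genes. Eppk1, the keratin-binding epiplakin, read 4338 on the null-labelled and 8820 on the wild-type array, 2.03-fold lower. The integrin Itga6, the linker Plec and the desmosomal plakophilin Pkp2 had log2 ratios of -0.98, -0.91 and -0.85. Desmoplakin, Dsp, the main link from desmosome to keratin, read 74083 on the null-labelled and 80250 on the wild-type array (-0.12). This was the lowest ratio of its 3 probe sets, which ran up to 0.51. Dsc2 had -0.19 at its brightest probe set and -1.33 at its other, so the count of anchors depends on the choice of probe set. Of 7 measured keratin binding and assembly partners none was 2-fold apart, and the median was 0.013. Krtdap, a keratinocyte differentiation gene, had a log2 ratio of 0.93, Tchp, which encodes the keratin-binding trichoplein, -0.60, and Fam83h, a regulator of keratin assembly, 0.45. Trichohyalin, Tchh, had a bound of -0.44.

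Transcription and splicing factors that regulate keratin genes were read from a list of 24. Of 23 measured, 0 were at least 2-fold lower and 1 higher at the brightest probe sets, with a median log2 ratio of 0.048. That 1 gene is 4.35% of them, against 6.01% of all measured genes. The higher one was Cebpb, which acts in keratinocyte differentiation, at 3020 on the null-labelled and 1459 on the wild-type array, 2.07-fold. The epithelial factor Grhl2, the foregut endoderm factor Foxa2 and the epithelial factor Klf5 had log2 ratios of 0.93, 0.89 and 0.80. Trp63, the master factor of stratified epithelium, had 0.66 at its brightest probe set and -0.16 at the lowest of its 3 measured ones.

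Markers of cell types were read beside the keratins. For the marker counts that follow, the share among all measured genes was 5.36% for 2-fold lower and 6.01% for 2-fold higher. Of genes made in esophageal epithelium, Krt4, Krt13, Krt5, Krt15, Sox2 and Trp63 lay above the limit on both arrays. The squamous genes Ivl and Rhcg lay below it on both. Other stratified epithelia also make such genes, so these signals do not settle the label of esophagus. Of 12 measured pan-epithelial genes, 3 were at least 2-fold lower, the claudins Cldn4 (3.90-fold) and Cldn7 (3.87-fold) and the protease inhibitor Spint1 (1657 on the null-labelled and 3321 on the wild-type array), and 0 higher, with a median log2 ratio of -0.26. Of 6 basal squamous genes, which include Krt5, Krt14 and Krt15, 1 was lower (Krt14) and 0 higher, with a median of -0.20 and a summed signal of 151457 on the null-labelled and 159039 on the wild-type array. The summed signal of the pan-epithelial list was 118127 on the null-labelled and 121756 on the wild-type array. Of its 12 measured genes, 9 had ratios below 0, whereas its brightest members, Epcam and Spint2, read higher at their brightest probe sets. Cdh1, the epithelial cadherin, had a log2 ratio of -0.17, and the probe sets of Epcam went both ways, at 0.65 and -0.60. Those of Spint2 did too, at 0.25 and -0.64. Of 8 measured suprabasal esophageal genes, Krt4 and Krt13 among them, 4 were lower and 0 higher. These were Crct1 (9.63-fold), Cnfn (4.87-fold), Sprr1a (4.34-fold) and Sprr3 (2.81-fold), all genes of the cornified envelope or its cluster. Some other envelope genes were not 2-fold lower. Scel and Tgm3 of the same list had log2 ratios of -0.50 and 0.085, with 0.87 at the other Tgm3 probe set. Evpl, Ppl and Lor of other lists had -0.19, -0.71 and 0.18. The summed signal of the suprabasal list, most of it Krt4, was 318934 on the null-labelled and 269376 on the wild-type array.

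Simple keratins are also made by mesothelium and by airway epithelium, and genes of both lists had ratios on both sides of 0. Of 9 mesothelial genes 6 were measured and 2 were lower, Upk1b (2.38-fold) and Upk3b (at least 3.23-fold), with 0 higher. The median log2 ratio was -0.53, and Msln had -0.56. The 4 Upk1b probe sets differed in size, from -1.25 at the brightest to -0.22 on the log2 scale. Aldh1a2, at 0.42, and Gpm6a, at a bound of 0.23, had ratios above 0. Their summed signal, most of it Upk1b, was 26033 on the null-labelled and 50181 on the wild-type array, and Wt1, Lrrn4 and Muc16 lay below the limit on both. Of 8 airway and lung genes 5 were measured and 2 were lower, the secretoglobins Scgb3a2 (7.66-fold) and Scgb3a1 (2.09-fold). The other 3 had ratios above 0, with the surfactant gene Sftpc at 0.75, Foxj1, a factor of ciliated cells, at 0.50 and Sftpb at a bound of 0.70 on the log2 scale. None was 2-fold higher. The median log2 ratio was 0.50 over the 5 measured genes and -0.28 over the 4 above the limit on both arrays. Their summed signal was 5667 on the null-labelled and 9883 on the wild-type array, and the lung and thyroid factor Nkx2-1 lay below the limit on both arrays. The part of either cell type in the simple keratin ratios was not tested. Epidermal, stomach, and thyroid and thymus lists were mostly below the limit, with 3 of 7, 1 of 7 and 2 of 6 genes measured. Summed, they read 6314, 6485 and 2102 on the null-labelled array and 4747, 3559 and 880 on the wild-type array. No gene of any of these lists was listed at 0.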

How the data were processed

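Esophagus RNA of mouse embryos (6 µg of RNA for labelling) was hybridized to Affymetrix arrays, 1 array per genotype. The authors deposited 1 linear signal intensity for each probe set, summarized with MAS5, per the submitters' processing notes, which give no version or settings. Both arrays had a mean of 1500 after trimming 2% from each end. Of 45101 probe sets, 64 controls were left out, and 34945 carry 1 gene symbol in GEO's platform annotation. All 48 keratin genes matched the RefSeq table of GRCm38.p6 by Entrez ID, with the same symbol. A probe set annotated to both Krt17 and Krt14 was left out. A gene took its probe set of highest mean signal. Genes were counted at 2-fold. A bound is given where 1 array was below the limit.

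The members, lists and motifs were chosen with earlier results of these data known. All measured keratin genes are named, and in other lists up to 4 members of largest ratio. Other genes named there were picked with their values known. Alternatives tried were median centring, quantile normalization, loess (span 0.3), limits at the 25th and 75th percentiles, no limit (pseudocount 16), the middle ratio over each gene's probe sets, dropping _x_at and _s_at probe sets, and 4-fold. The counting was tested on simulated data, with changes planted only in genes well above the limit and noise smaller than the spread between probe sets. It therefore does not show how well changes in dim genes are counted. Python 3.11.15, numpy 2.4.6, pandas 2.3.3 and statsmodels 0.14.6 were used.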

Additional observations from a re-analysis of the deposited data

How the results depend on the processing

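The count of 7 keratin genes at least 2-fold lower was also 7 with median centring, quantile normalization, loess and without _x_at and _s_at probe sets, against 6.24%, 6.13%, 8.08% and 5.28% of all genes. It was 8 with the middle ratio over each gene's probe sets (4.03% of all genes). Krt7, Krt8, Krt19, Krt14, Krt78 and Krt6b were at least 2-fold lower in all 8 alternatives that keep the 2-fold threshold. Krt23 was so in 7. Its log2 ratio was bounded at -0.85 when the 75th percentile served as limit. Not all of the 8 could move each gene. Krt7, Krt19, Krt78 and Krt6b have 1 probe set each and lie above each limit. The 25th and 75th percentile limits and the choice of probe sets therefore leave their ratios unchanged. The count was 10 of 40 and 6 of 17 with limits at the 25th and 75th percentiles (7.45% and 4.80% of all genes), 12 of 48 with no limit (9.37%) and 2 of 27 at 4-fold (1.07%). Krt4 turned from 0.58 to -0.43 with quantile normalization and to -0.25, its other probe set, without _x_at probe sets. The count of keratin genes at least 2-fold higher, 0 otherwise, was 8 under the 25th percentile limit and 11 with none, where more dim genes are counted. The median log2 ratio of measured keratins was -0.41 under the 75th percentile limit and -0.29 over genes above the limit on both arrays, an alternative chosen after seeing the data. Fewer genes are counted in both. The median of the simple keratins ran from -1.62 to -1.25 over the alternatives. No paired analysis was possible because each genotype has 1 array. Signal near the limit leaves dim keratins unordered.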

Other observations

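RefSeq's promoter table held 37 windows of 36 keratin genes, and these differed in letters from the table as a whole. TATAAA stood in 51.4% of the keratin windows (19 of 37), against 13.6% of all 32851 windows. On the gene's own strand and starting 20 to 40 bases before the annotated start, it stood in 13 keratin windows (35.1%), against 1.99% of all. The GC box GGGCGG stood in 2 keratin windows (5.41%), those of Krt7 and Krt75, against 35.7% of all. The AP-1 letters stood in 5.41% of keratin windows against 7.81% of all, and the AP-2 letters in 18.9% against 16.6%. Keratin genes arose by duplication and share sequence, so the windows are not independent and no test was made. Of the simple keratins with a window, only Krt20 and Krt8 held TATAAA, and Krt20 alone at the usual distance. A match describes letters only.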
